A study of Homo sapiens with 4 samples.

Results

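Claudin and desmosome genes were taken as the protein-coding genes of chromosomes 1-22 in the GENCODE annotation of GRCh38 whose symbol is CLDN, DSG, DSC or PKP followed by a digit, together with DSP, JUP, OCLN and TJP1. The rule gave 37 genes of 19111: 22 claudins, 7 desmosomal cadherins, 6 desmosomal plaque genes and the 2 tight junction genes OCLN and TJP1. Chromatin accessibility around them had been measured by ATAC-seq, which marks DNA that a transposase can reach, in the established nasopharyngeal carcinoma line HK1. The 4 libraries, 1 per group, were wild-type cells left untreated (WT), wild-type cells given interferon-γ (WT-IFN-γ), knockout cells made with a guide against FLI1, an ETS-family transcription factor (sgFLI1, FLI1-KO) and FLI1-KO cells given interferon-γ (sgFLI1-IFN-γ). The labels do not say whether the FLI1-KO cells were 1 clone, so the genotype and the history of that line cannot be told apart.

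Claudins are membrane proteins that span the membrane 4 times and, with occludin, form the strands of the tight junction, which seals the space between neighbouring epithelial cells. Their tails bind scaffold proteins such as ZO-1, the product of TJP1. Desmosomes join cells mechanically: desmogleins (DSG) and desmocollins (DSC) bind across the gap between cells, plakoglobin (JUP) and plakophilins (PKP) bind their tails, and desmoplakin (DSP) ties the plaque to keratin filaments. In stratified squamous epithelia, the genes for DSG3 and DSC3 are known for use in the lower layers and those for DSG1 and DSC1 in the upper ones.

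With 1 library per group there was no spread between replicates, so no difference was tested, and intervals give 95% counting error only. The value used is the summit pileup, the number of tags over the highest point of a peak. Libraries differed in depth, with 6.86 to 8.84 tags per kb of genome, and a scaled pileup is the pileup divided by that density. A log2 ratio is the ratio of 2 scaled pileups, less the median of all regions listed in both libraries. Accessibility was measured in bulk, so fewer cells with an open region and a region less open in each cell cannot be told apart. The lists were those of an epithelial line by its defining genes: of 7 epithelial markers, 6 had a peak within 3 kb of a start in every list, all but KRT14. Peaks were also listed there at 2 to 4 of 6 leukocyte, 2 to 3 of 3 endothelial and 3 of 4 fibroblast markers. The leukocyte gene PTPRC had a peak in WT alone, of 12 tags, and CD3E and LYZ had none within 3 kb in any list. The part of such cells in the results below was not tested.

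Peaks of the 4 lists that overlapped were merged into regions, and 77 of the 38475 regions within 10 kb of a protein-coding start lay within 10 kb of a start of these genes. They touched 33 of the 37 genes. CLDN8, CLDN17, DSC1 and DSG4 had none in any list, which shows that no peak passed the listing limit there and not that the chromatin was closed. Of the 77 regions, 44 had their summit in an intron, 17 in an exon and 16 between genes, and 24 lay within 1 kb of a start. The median width was 843 bp. For 65 regions the nearest start of any protein-coding gene was that of a claudin or desmosome gene, and for 12 it was another gene's. Another gene was also nearest at 5 of the 10 regions with the highest scaled pileup, those nearest THOC6, TNFRSF12A, FIS1, CTDNEP1 and an unnamed gene.

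All 4 lists held 40 of the regions (51.9%, against 56.0% of the regions near all protein-coding genes). A further 20 were in a single list: 11 in WT-IFN-γ (14.3%, against 8.89%), 7 in sgFLI1 (9.09%, against 6.39%) and 1 each in WT (1.299%, against 4.64%) and sgFLI1-IFN-γ (1.299%, against 4.37%). Regions of a single list were low, with a median of 11.5 tags (range 9 to 56). Their median scaled pileup was 1.53, against 10.9 (range 1.74 to 25.7) for the regions in all 4 lists, each by its highest library. Values given as 4 numbers without names are those of untreated WT, treated WT, untreated FLI1-KO and treated FLI1-KO cells, in that sequence. By library there were 51, 63, 57 and 51 regions, which lay at 27, 29, 27 and 27 of the genes. The number of genes with a listed region thus moved little, while the number of regions at them was highest in WT-IFN-γ. Near all protein-coding genes the lists held 27774, 30182, 28641 and 27526 regions, so that WT-IFN-γ, the deepest library, was highest there too.

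**Figure D1:**
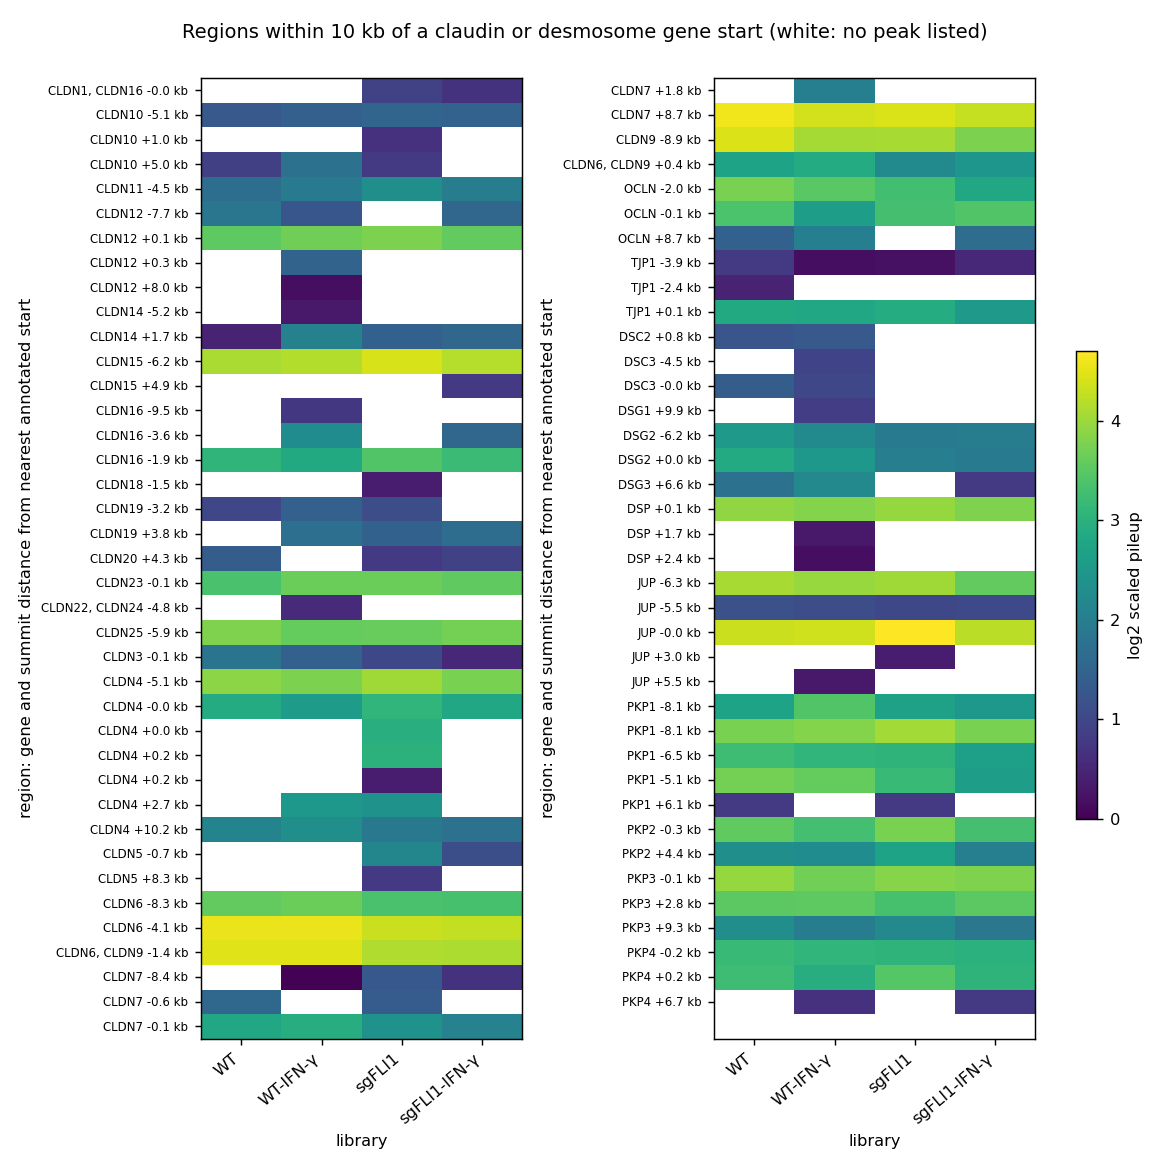
Every region within 10 kb of a start of the 37 genes, in rows by gene and by distance of the summit from the nearest annotated start (kb), and the 4 libraries in columns. Colour is the log2 of the scaled pileup (summit tags divided by tags per kb), and white means that no peak was listed. The 40 regions coloured across all columns include the brightest ones, while the 20 coloured in 1 column are mostly dark.

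In WT cells, the first question was how the listed regions differed after IFN-γ. In WT-IFN-γ and not in WT were 16 of 63 regions (25.4%, 16.3 to 37.3%), against 18.3% of the WT-IFN-γ regions near all protein-coding genes. In WT and not in WT-IFN-γ were 4 of 51 (7.84%, 3.09 to 18.5%), against 11.2%. Both backgrounds lay within the counting intervals. Of the 47 regions listed in both, 1 was at least 2-fold higher in WT-IFN-γ (2.13%, 0.377 to 11.1%, against 1.35%), a region of CLDN14, and 0 were 2-fold lower (interval up to 7.56%, against 0.369%). The median log2 ratio of the 47 was 0.0031, with 24 above and 23 below 0, against -0.01 over the 24659 shared regions near all genes.

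In FLI1-KO cells, 6 of 51 sgFLI1-IFN-γ regions were not in sgFLI1 (11.8%, 5.51 to 23.4%, against 12.2%). In the other direction, 12 of 57 sgFLI1 regions were not in sgFLI1-IFN-γ (21.1%, 12.5 to 33.3%, against 15.6%). Of 45 shared regions, 0 were 2-fold higher (against 0.364%) and 0 were 2-fold lower (against 0.132%), each with an interval up to 7.87%. The median log2 ratio was -0.06, with 27 regions below 0. The net number of listed regions therefore went up by 12 with IFN-γ in WT cells, and in FLI1-KO cells its change was -6. The difference between the genotypes was not tested.

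Comparing genotypes without IFN-γ, 12 of 57 sgFLI1 regions were not in WT (21.1%, 12.5 to 33.3%, against 17.6%) and 6 of 51 WT regions were not in sgFLI1 (11.8%, 5.51 to 23.4%, against 15.0%). Where −log10 q of at least 5 was required these counts were 8 and 8. Of the 45 shared regions, 0 were 2-fold higher in sgFLI1 (against 2.16%) and 0 were 2-fold lower (against 1.67%). With IFN-γ, 4 of 51 sgFLI1-IFN-γ regions were not in WT-IFN-γ (7.84%, 3.09 to 18.5%, against 13.2%) and 16 of 63 WT-IFN-γ regions were not in sgFLI1-IFN-γ (25.4%, 16.3 to 37.3%, against 20.9%). Of the 47 shared there, 0 were 2-fold higher in sgFLI1-IFN-γ (against 2.03%) and 1, in DSG3, was 2-fold lower (against 2.06%). The shares again lay near those of all genes.

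**Figure D2:**
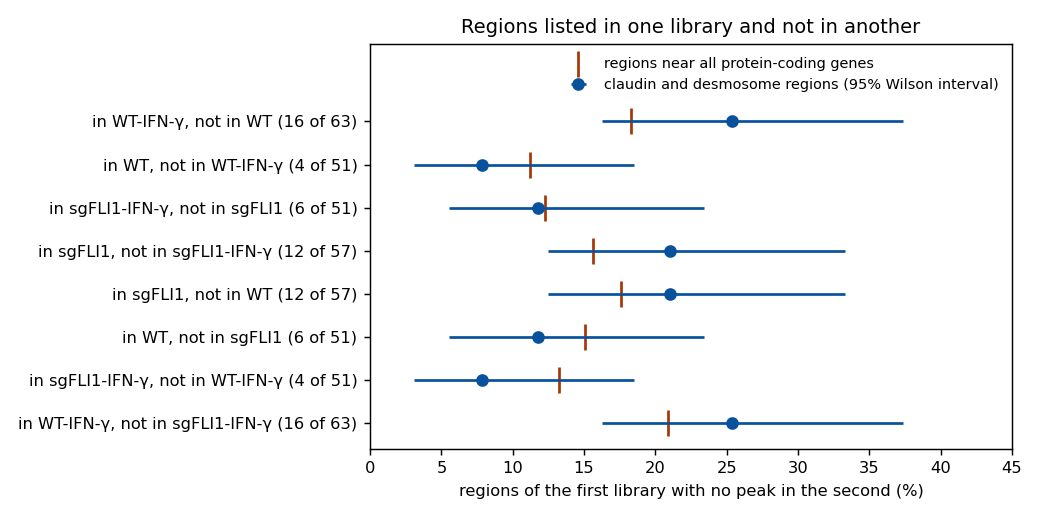
For each ordered pair of libraries, the share of regions of the first library with no peak in the second, in percent. Points with bars are the claudin and desmosome regions with 95% Wilson intervals, and vertical ticks are the regions near all protein-coding genes. Every tick lies within the bar of its row.

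The median level of shared regions in FLI1-KO cells lay slightly under that in WT cells. The median log2 ratio of sgFLI1 to WT was -0.16 over 45 regions, 28 of them below 0, against -0.03 for the 23597 regions near all genes, and it was -0.05 for the members' regions within 3 kb of a start. For sgFLI1-IFN-γ to WT-IFN-γ it was -0.09 over 47 regions, 32 of them below 0, against -0.02. The range over all genes was wide, with the 10th and 90th percentiles at -0.54 and 0.49 without IFN-γ and at -0.52 and 0.50 with it. Part of the members' lower values lay on chromosomes whose other regions were lower as a whole: the medians were -0.29 and -0.34 on chromosome 18, which holds every DSG and DSC gene, and -0.29 and -0.27 on chromosome 16, which holds CLDN6 and CLDN9. A change in chromosome copies and a change in accessibility over a chromosome cannot be told apart from peak lists. Without chromosome 18 the members' medians were -0.15 over 43 regions and -0.07 over 44. With each region centred on its own chromosome they were -0.14 and -0.09, against -0.16 and -0.09, so this step moved them little.

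**Figure D3:**
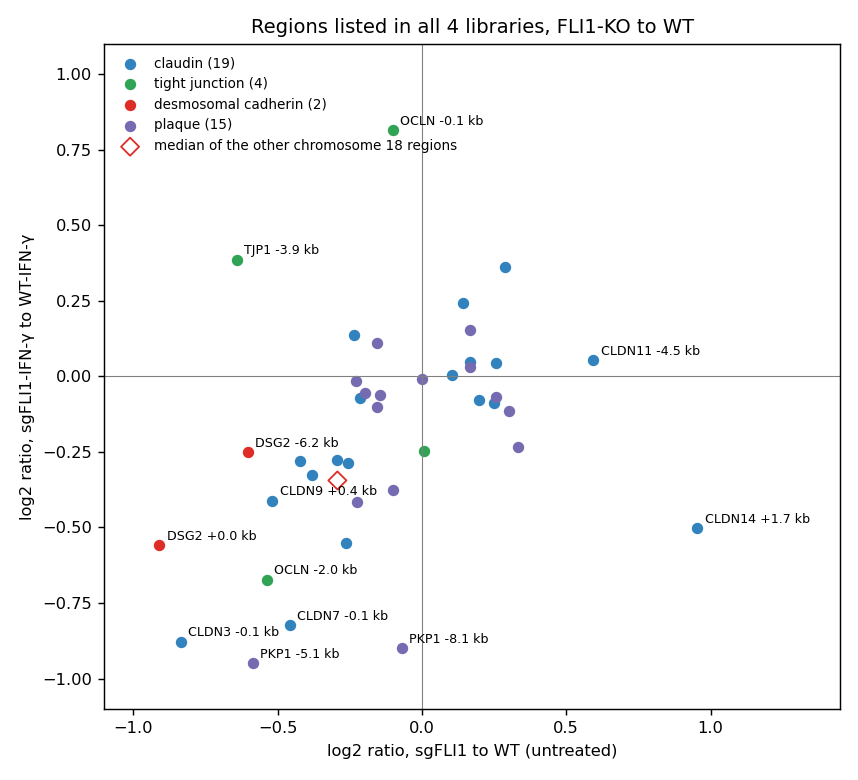
The 40 regions listed in all 4 libraries, with the log2 ratio of sgFLI1 to WT on the x axis and that of sgFLI1-IFN-γ to WT-IFN-γ on the y axis, coloured by gene family. The open diamond is the median of the other chromosome 18 regions, at -0.29 and -0.34. Regions of DSG2, CLDN3, CLDN7 and PKP1 and the intronic one of OCLN lie at the lower left, and the OCLN start region at the top.

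A region within 3 kb of the canonical start was listed in at least 1 library at 21 of the 37 genes. By library it was listed at 18, 18, 19 and 17 genes. The 5 plaque genes with such a region, all but PKP1, had it in every list, and so did OCLN and TJP1. Of the 11 claudins with one, 8, 8, 11 and 9 had it by library. Of the 3 desmosomal cadherins with one, DSG2, DSC2 and DSC3, all 3 had it in both WT lists and 1, DSG2, in both FLI1-KO lists.

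**Figure D4:**
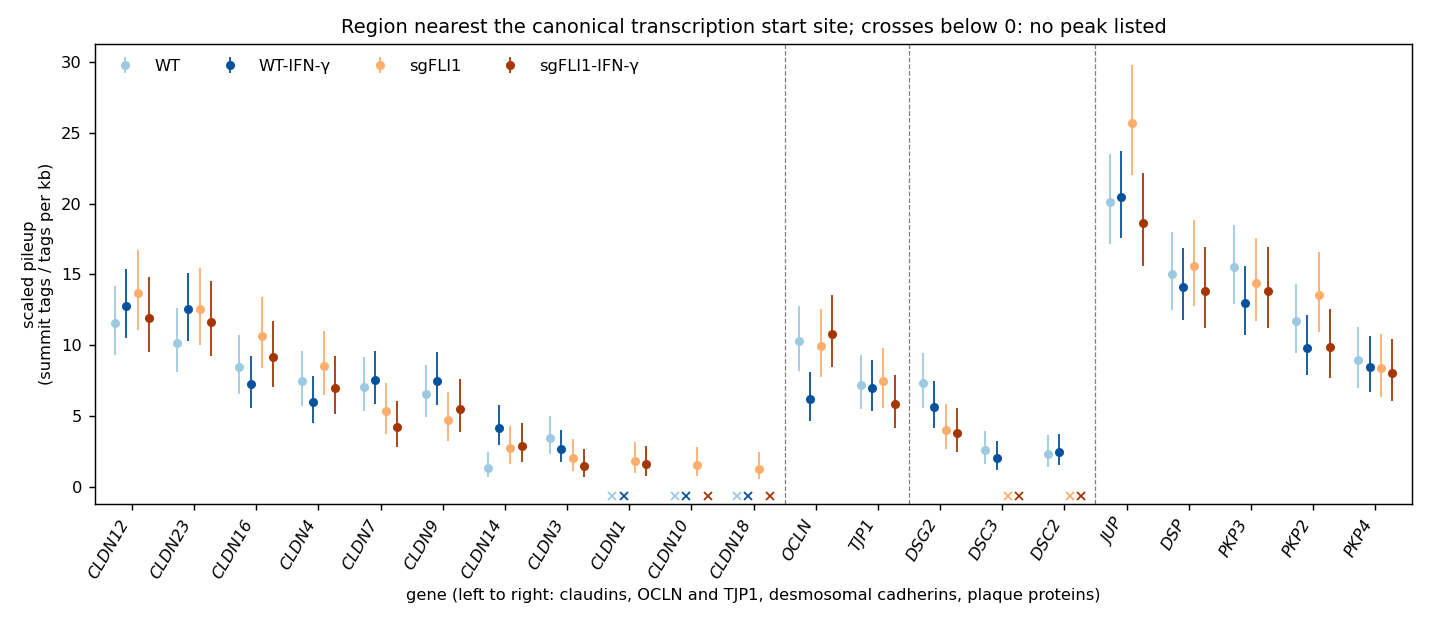
Scaled pileup (summit tags divided by tags per kb) of the region nearest the canonical start, for the 21 genes with one within 3 kb, with 95% Poisson intervals. Each gene has 4 points, 1 per library, and a cross below 0 marks a library with no listed peak. The JUP points are the highest, and those of CLDN1, CLDN10, CLDN18, DSC2 and DSC3 are missing from some lists.

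The desmosomal cadherins had regions at 5 of 7 genes. Their regions numbered 5, 7, 2 and 3 by library. All of them lie in a single cluster on chromosome 18, with DSC3, DSC2 and DSC1 on the minus strand and DSG1, DSG4, DSG3 and DSG2 on the plus strand. In WT and not in sgFLI1 were 3 of 5 of these regions (60%, 23.1 to 88.2%), against 20.5% of the chromosome 18 regions near protein-coding genes. In WT-IFN-γ and not in sgFLI1-IFN-γ were 4 of 7 (57.1%, 25.05 to 84.2%), against 28.9%. The first background lay below the counting interval and the second within it. These intervals take neighbouring regions of 1 cluster as separate draws. The 3 regions missing from sgFLI1 had 21, 19 and 27 tags in WT, while the background holds regions of every height. Whether the shares differ from those backgrounds was not tested.

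**Figure D5:**
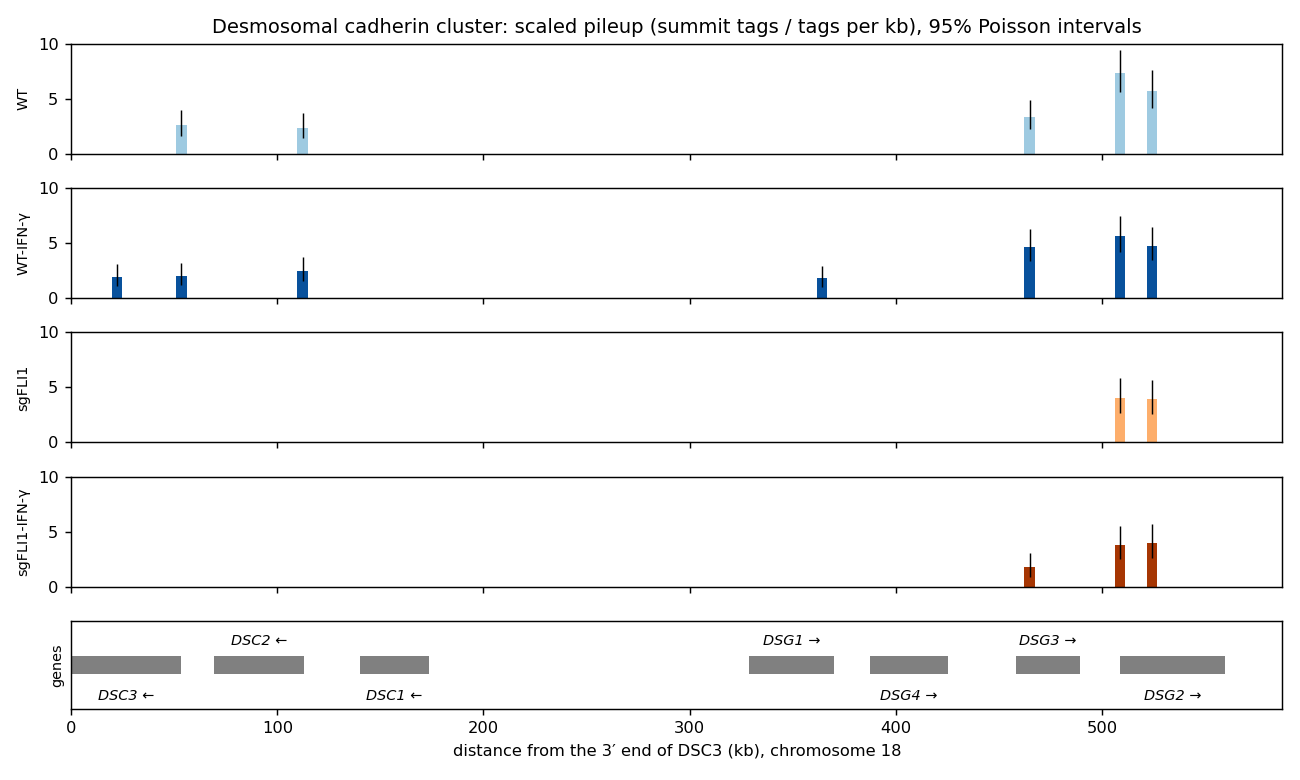
The desmosomal cadherin cluster by distance from the 3′ end of DSC3 (kb), with genes as grey bars and arrows for the direction of transcription. Bars give the scaled pileup of each listed region with its 95% Poisson interval in 1 panel per library. WT and WT-IFN-γ have regions at DSC3 and DSC2 where the FLI1-KO panels are empty, and only the DSG2 pair stands in all 4 panels.

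DSC3 and DSC2 encode desmocollins, of which DSC2 is the one found in most tissues that have desmosomes. The DSC3 start region (chr18:31042112-31043098, summit at -21 bp) had 21 tags (13.0 to 32.1) in WT and 18 (10.7 to 28.4) in WT-IFN-γ and was in neither FLI1-KO list. The DSC2 region (chr18:31101362-31102472, in an intron, summit at 817 bp) had 19 tags (11.4 to 29.7) in WT and 22 (13.8 to 33.3) in WT-IFN-γ and was likewise in neither. Both were thus WT regions of modest height, and depth limits what their absence shows. At the depth of sgFLI1 and with the chromosome 18 ratio, the DSC3 region would have 14.8 tags (9.15 to 22.6) where 8 suffice for listing, and the DSC2 region 13.4 (8.05 to 20.9) where 9 do. In sgFLI1-IFN-γ the same reckoning gave 11.005 tags (6.52 to 17.4) against 7 for DSC3 and 13.5 (8.43 to 20.4) against 9 for DSC2. The interval lay above the limit for DSC3 in the untreated pair, and its lower end was under the limit in the other 3 cases. These intervals carry the counting error of the WT peak only, and not that of the list without it.

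The DSG3 gene, whose product is the target of the autoantibodies of pemphigus vulgaris, had a single region, in an intron (chr18:31454126-31454755, summit at 6570 bp). It had 27 tags (17.8 to 39.3) in WT, against 41 (29.4 to 55.6) in WT-IFN-γ and 12 (6.20 to 21.0) in sgFLI1-IFN-γ, and was not listed in sgFLI1. Both WT values lay above the only FLI1-KO value. The log2 ratio of sgFLI1-IFN-γ to WT-IFN-γ was -1.39 (-2.45 to -0.43), and -1.04 (-2.11 to -0.09) after the chromosome 18 median was taken off. In sgFLI1 19.0 tags (12.5 to 27.6) would stand at this site after both adjustments, against a listing limit of 8. From the sgFLI1-IFN-γ value it would be 12.2 (6.29 to 21.3) against 7, so the interval lay above the limit from the WT value only.

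DSG2, the desmoglein used most widely outside stratified epithelia, had its start region (chr18:31497657-31498756, summit at 2 bp) in every list. It held 59 tags (44.9 to 76.1) in WT and 50 (37.1 to 65.9) in WT-IFN-γ, with 28 (18.6 to 40.5) in sgFLI1 and 26 (17.0 to 38.1) in sgFLI1-IFN-γ. By scaled pileup, 7.34, 5.66, 4.04 and 3.79, both FLI1-KO libraries stood under both WT libraries. The log2 ratio was -0.91 (-1.61 to -0.24) without IFN-γ and -0.56 (-1.30 to 0.15) with it. With the chromosome 18 median taken off these became -0.62 (-1.32 to 0.06) and -0.21 (-0.96 to 0.50), both spanning 0. A second DSG2 region, in an intron at -6205 bp from a later start, had 46, 42, 27 and 27 tags. Its adjusted log2 ratios were -0.31 (-1.05 to 0.41) and 0.09 (-0.66 to 0.82), so that it stood near its chromosome.

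A pair of cadherin regions was in WT-IFN-γ alone, a DSC3 intron at -4516 bp with 17 tags (9.90 to 27.2) and a DSG1 intron at 9932 bp with 16 (9.15 to 26.0). DSG1 encodes the desmoglein of the upper epidermis. In WT they would have 15.1 (8.79 to 24.2) and 14.2 tags (8.12 to 23.1) at equal accessibility, against a limit of 8 for each. In sgFLI1-IFN-γ, after depth and chromosome 18, 10.4 (6.05 to 16.6) and 9.78 (5.59 to 15.9) would stand against a limit of 7, so their absence there was not resolved at this depth.

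The sequences just before the DSC3 and DSG2 starts are shown because the start regions of these genes cover them, together with the bases around the DSG3 summit. The start sequences come from the RefSeq promoter table of GRCh38.p14, in which 29 of the 37 genes were found, cut to the stretch free of annotated exons. Each runs 5′ to 3′ on the strand of the gene, and the DSG3 stretch, from GRCh38, runs on the plus strand. Capitals mark matches on either strand to any of 6 motifs searched: AP1 (TGANTCA), ETS (CCGGAAGT), the E2-box of SNAI and ZEB factors (CACCTG), GRHL (AACCNGTT), TEAD (GGAATG) and IRF (GAAANNGAA).
DSC3, chr18:31042816-31042992, minus strand: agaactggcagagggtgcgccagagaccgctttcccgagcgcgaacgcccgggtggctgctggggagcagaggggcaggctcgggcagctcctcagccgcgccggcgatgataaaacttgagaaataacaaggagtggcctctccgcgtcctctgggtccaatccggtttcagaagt
DSG2, chr18:31497927-31498176, plus strand: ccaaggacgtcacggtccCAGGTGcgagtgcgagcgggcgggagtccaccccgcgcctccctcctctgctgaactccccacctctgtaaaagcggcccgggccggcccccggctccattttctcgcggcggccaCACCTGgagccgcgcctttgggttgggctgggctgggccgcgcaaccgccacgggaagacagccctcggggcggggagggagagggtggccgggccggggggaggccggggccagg
DSG3 summit, chr18:31454211-31454411, plus strand: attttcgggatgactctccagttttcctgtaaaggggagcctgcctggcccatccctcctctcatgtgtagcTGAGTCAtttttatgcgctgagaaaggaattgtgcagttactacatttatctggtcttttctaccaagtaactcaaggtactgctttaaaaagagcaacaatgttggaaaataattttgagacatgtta

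The DSG2 stretch held 2 E2-box matches, a motif found in 14.2% of 33725 RefSeq promoters of 300 bases on chromosomes 1-22. The DSC3 stretch held no match to the 6 motifs. The DSG3 summit held 1 AP1 match, a motif found within 100 bp of the summit at 17.0% of all regions near protein-coding genes. None of the 3 printed stretches held the ETS letters. These stood in 3.24% of the promoters and within 100 bp of the summit at 2.09% of all regions near protein-coding genes. The DSC3 and DSG2 stretches, of 177 and 250 bases, are shorter than those promoters.

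Of the 21 regions of the plaque genes 15 were in all 4 lists, and 16, 19, 17 and 16 were listed by library. JUP, which encodes plakoglobin, had the highest scaled pileup of any of the 77 regions at its start (summit at -23 bp), with 162, 181, 178 and 128 tags. The scaled values ran from 18.7 in sgFLI1-IFN-γ to 25.7 in sgFLI1, and the log2 ratio of sgFLI1 to WT was 0.30 (-0.01 to 0.62). DSP, for desmoplakin, had 121, 125, 108 and 95 tags at 62 bp, with log2 ratios of FLI1-KO to WT of 0.0016 and -0.01. PKP3, a plakophilin of all epidermal layers, had 125, 115, 100 and 95 tags at -141 bp, and PKP2, also the plakophilin of the heart, had 94, 87, 94 and 68 at -315 bp. PKP4 had 72, 75, 58 and 55 tags at -201 bp, over an exon of its divergent neighbour CCDC148, and 76, 67, 76 and 57 at 185 bp. At DSP, PKP3, PKP2 and PKP4 the intervals of all 4 ratios of these start regions included 0. The 4 plaque regions in a single list, 2 at DSP and 2 at JUP, had 9 to 11 tags, close to the lowest pileup listed anywhere.

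PKP1, the plakophilin of the upper epidermal layers, was the plaque gene with no region within 3 kb of its canonical start. The strongest of its regions lay before the gene at -8054 bp and had 108, 126, 115 and 92 tags. Within the gene, 3 neighbouring intron regions stood before a later start. The one at -5103 bp (chr1:201310624-201311479) had 106 tags (86.8 to 128) in WT and 106 (86.8 to 128) in WT-IFN-γ, with 63 (48.4 to 80.6) in sgFLI1 and 42 (30.3 to 56.8) in sgFLI1-IFN-γ. By scaled pileup these were 13.2, 12.0, 9.09 and 6.12, and the FLI1-KO libraries were lower in both pairs. This region met none of the rules by which regions were named and was described with its values known. Its intervals make no allowance for the number of ratios examined. The log2 ratio was -0.59 (-1.06 to -0.12) without IFN-γ and -0.95 (-1.50 to -0.42) with it, while the chromosome 1 medians were 0.08 and 0.08.

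Its neighbour at -8146 bp (chr1:201307576-201308478) had 53 tags (39.7 to 69.3) in WT and 95 (76.9 to 116) in WT-IFN-γ, with 45 (32.8 to 60.2) in sgFLI1 and 39 (27.7 to 53.3) in sgFLI1-IFN-γ. WT-IFN-γ stood above the other 3 libraries with no overlap of intervals. The region met none of the rules by which regions were named and was described with its values known. Its intervals make no allowance for the number of ratios examined. The log2 ratio of WT-IFN-γ to WT was 0.78 (0.28 to 1.29), that of sgFLI1-IFN-γ to sgFLI1 was -0.05 (-0.71 to 0.60) and that of sgFLI1-IFN-γ to WT-IFN-γ was -0.90 (-1.48 to -0.35). The remaining one, at -6455 bp, had 76, 75, 58 and 43 tags, and all 4 of its ratios had intervals including 0. The local background at the 3 regions moved the same way, from 23.6 to 24.1 tags in WT and 27.2 to 27.6 in WT-IFN-γ to 14.2 to 14.6 in sgFLI1 and 11.9 to 12.2 in sgFLI1-IFN-γ, so that the surroundings of the summits were lower too.

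TJP1 and OCLN had 6 regions, 4 of them in all lists. TJP1 had 58, 62, 52 and 40 tags at its start (summit at 73 bp), with ratios whose intervals all included 0. OCLN, for occludin, differed more. Its start region (chr5:69492237-69494178, summit at -128 bp) had 83 tags (66.1 to 103) in WT and 55 (41.4 to 71.6) in WT-IFN-γ, with 69 (53.7 to 87.3) in sgFLI1 and 74 (58.1 to 92.9) in sgFLI1-IFN-γ. WT-IFN-γ was the lowest, also by scaled pileup, at 10.3, 6.22, 9.95 and 10.8. The log2 ratio of WT-IFN-γ to WT was -0.66 (-1.18 to -0.15), that of sgFLI1-IFN-γ to sgFLI1 was 0.25 (-0.24 to 0.75) and that of sgFLI1-IFN-γ to WT-IFN-γ was 0.81 (0.29 to 1.34), or 0.69 less the chromosome 5 median. The first and the last of these share the WT-IFN-γ library.

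The intronic OCLN region at -2006 bp from a later start (chr5:69501532-69503345) followed the genotype instead. It had 109 tags (89.5 to 131) in WT and 100 (81.4 to 122) in WT-IFN-γ, with 67 (51.9 to 85.1) in sgFLI1 and 48 (35.4 to 63.6) in sgFLI1-IFN-γ. By scaled pileup these were 13.6, 11.3, 9.67 and 6.997, lower in FLI1-KO cells in both pairs. This region, too, met none of the naming rules and was described with its values known. Its intervals make no allowance for the number of ratios examined. The log2 ratios were -0.54 (-0.998 to -0.08) and -0.67 (-1.201 to -0.16), and less the chromosome 5 medians they were -0.66 and -0.79. The OCLN region at 8711 bp had 22, 36 and 22 tags in WT, WT-IFN-γ and sgFLI1-IFN-γ and was not listed in sgFLI1, where 20.7 (13.0 to 31.3) would be expected against a limit of 14. The TJP1 intron at -2436 bp, with 11 tags, was the only one of the 77 regions in WT alone.

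The claudins had 43 regions at 20 of 22 genes, with 24, 32, 34 and 27 by library. CLDN12, a widely used claudin without the usual scaffold-binding tail, had the highest start region by scaled pileup, with 93, 113, 95 and 82 tags at 125 bp. CLDN23 followed with 82, 111, 87 and 80 at -135 bp, and CLDN4, a sealing claudin common in carcinomas, had 60, 53, 59 and 48 at its canonical start. The intervals of all 4 ratios of these 3 regions included 0. CLDN16, a claudin of the kidney tubule, had 68, 64, 74 and 63 tags in an intron at -1873 bp.

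CLDN7 and CLDN3, claudins of many simple epithelia, had lower start values in the FLI1-KO lists, with most of the ratio intervals including 0. The CLDN7 start region (chr17:7262844-7264054, summit at -89 bp) had 57 tags (43.2 to 73.9) in WT and 67 (51.9 to 85.1) in WT-IFN-γ, with 37 (26.1 to 51.0) in sgFLI1 and 29 (19.4 to 41.6) in sgFLI1-IFN-γ. The log2 ratio was -0.46 (-1.096 to 0.16) without IFN-γ and -0.82 (-1.50 to -0.17) with it, so that the interval excluded 0 in the treated pair only. Its local background fell too, from 10.0 and 10.8 tags to 5.73 and 4.85. The CLDN3 start region at -91 bp had 28, 24, 14 and 10 tags, and its ratios, -0.83 (-1.87 to 0.14) and -0.88 (-2.11 to 0.24), spanned 0 at this depth.

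CLDN6, a claudin of embryonic epithelia, and its neighbour CLDN9 shared the region at 427 bp over the CLDN9 exon, with 53, 66, 33 and 38 tags. The region at -8947 bp from CLDN9 had 176, 149, 117 and 94 tags and a log2 ratio of -0.42 (-0.77 to -0.08) without IFN-γ. Less the chromosome 16 median it was -0.14, and the ratios of the other 4 regions of the pair lay between -0.23 and 0.03 after the same step. These regions thus stood near the level of their chromosome in FLI1-KO cells.

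Other claudin regions were listed in FLI1-KO cells and not in WT cells. The start region of CLDN1, a claudin of the epidermal barrier, had 13 tags (6.92 to 22.2) in sgFLI1, 11 (5.49 to 19.7) in sgFLI1-IFN-γ and none listed in WT or WT-IFN-γ. It lies between the divergent starts of CLDN1 and CLDN16 (chr3:190322031-190323200, summit at -39 bp). In WT 14.5 tags (7.71 to 24.8) would be expected at equal accessibility, against a limit of 8, so the difference was not resolved at this depth. CLDN5, best known as the claudin of endothelium, had a region at -700 bp (chr22:19527953-19528369) with 31 tags (21.1 to 44.002) in sgFLI1, 15 (8.40 to 24.7) in sgFLI1-IFN-γ and no listing in either WT library. Here 35.3 tags (24.0 to 50.1) would be expected in WT against a limit of 15, but 18.9 (10.6 to 31.2) in WT-IFN-γ against 16, so the absence from WT-IFN-γ was not resolved. At another endothelial gene set, the 3 marker genes PECAM1, CDH5 and VWF, 2 had a region within 3 kb in both WT lists and 3 in both FLI1-KO lists, and their part in the CLDN5 value was not tested.

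At CLDN4, 2 regions over earlier alternative starts (chr7:73827639-73827922 and chr7:73828240-73828500) were in sgFLI1 alone, with 54 tags (40.6 to 70.5) and 56 (42.3 to 72.7). Equal accessibility would give 59.95 (45.04 to 78.2) and 62.2 (47.0 to 80.7) in WT, where 35 and 31 suffice. Both regions are in the set only because sgFLI1 listed them, and no allowance was made for that selection. They stand on high local backgrounds of 17.2 and 14.1 tags, between regions that every list holds at -5130 bp (118, 121, 113 and 93 tags) and at the canonical start. A further CLDN4 region at 2666 bp (chr7:73833328-73833909) had 50 tags in WT-IFN-γ (37.1 to 65.9) and 37 in sgFLI1 (26.1 to 51.0) and was in neither WT nor sgFLI1-IFN-γ. It was the 1 region of the 77 that was gained with IFN-γ in one genotype and lost in the other.

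With IFN-γ the claudin region that passed 2-fold was the CLDN14 intron at 1662 bp (chr21:36477629-36478874), CLDN14 being a claudin of the inner ear and kidney. It had 11 tags (5.49 to 19.7) in WT and 37 (26.1 to 51.0) in WT-IFN-γ, with 19 (11.4 to 29.7) in sgFLI1 and 20 (12.2 to 30.9) in sgFLI1-IFN-γ. WT was the lowest and WT-IFN-γ the highest, and the FLI1-KO libraries lay between them. The log2 ratio was 1.68 (0.68 to 2.80) in WT and 0.23 (-0.76 to 1.21) in FLI1-KO cells.

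CLDN12 had 2 regions in WT-IFN-γ alone. The CLDN16 intron at -3643 bp (chr3:190384363-190384774) had 43 tags in WT-IFN-γ (31.1 to 57.9) and 20 in sgFLI1-IFN-γ (12.2 to 30.9) and was in neither untreated list. In sgFLI1 20.5 tags (12.5 to 31.6) would be expected against a limit of 16. In WT it would be 38.7 (27.99 to 52.1) against 16, and only there did the interval lie above the limit. CLDN19, another claudin of the kidney tubule, had an intron region at 3801 bp that was missing from WT and had 29 tags in WT-IFN-γ, with 19 in sgFLI1 and 22 after treatment of those cells. In WT 26.4 tags (17.7 to 37.9) would be expected from the WT-IFN-γ value, against a limit of 12. From the sgFLI1 value it would be 20.9 (12.6 to 32.7) against 14, so the interval lay above the limit in the first case only. CLDN7 had a region at 1842 bp, over an exon of ELP5, with 36 tags in WT-IFN-γ alone, and 33.3 (23.3 to 46.2) would be expected in WT against a limit of 19. The CLDN16 region and a PKP4 intron region at 6699 bp, with 14 tags in WT-IFN-γ and 12 in sgFLI1-IFN-γ, were the 2 of the 77 that both treated lists held and neither untreated list did.

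Several claudin regions were missing from a list in another pattern. The CLDN20 intron at 4290 bp had 21 tags in WT and, in FLI1-KO cells, 12 without and 13 with IFN-γ, and was not listed in WT-IFN-γ, where 23.3 (14.4 to 35.7) would be expected against a limit of 9. CLDN10, whose product forms pores for ions, had an intron region at 5022 bp with 15, 30 and 12 tags in WT, WT-IFN-γ and sgFLI1 and none in sgFLI1-IFN-γ, where the WT-IFN-γ value would give 25.6 (17.2 to 36.5) against a limit of 10 and the sgFLI1 value 11.7 (6.04 to 20.4) against 8. The CLDN12 intron at -7665 bp had 29, 21 and 20 tags in WT, WT-IFN-γ and sgFLI1-IFN-γ and was not listed in sgFLI1, where 26.1 (17.5 to 37.5) would be expected against a limit of 8. CLDN7 had a region at -8395 bp that was missing from WT alone, with 9 tags in WT-IFN-γ and 17 and 11 in untreated and treated FLI1-KO cells, and CLDN19 one at -3241 bp with 16, 24 and 15 in WT, WT-IFN-γ and sgFLI1. The remaining claudins had low or shared regions: CLDN11 had 26, 34, 35 and 27 tags at -4523 bp, CLDN18 had 9 tags at -1457 bp in sgFLI1 alone, CLDN22 and CLDN24 shared a region of 13 tags in WT-IFN-γ alone, and the regions of CLDN15 at -6187 bp and CLDN25 at -5931 bp lay nearest the starts of FIS1 and ZW10.

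The bases around 2 claudin summits and the stretch between the starts of CLDN1 and CLDN16 are shown, since these regions were not listed in WT or were 2-fold higher with IFN-γ. The summit stretches run on the plus strand of GRCh38, the CLDN1 stretch, from the RefSeq table, runs on the strand of CLDN1, and capitals mark the same 6 motifs.
CLDN16 at -3643 bp, chr3:190384377-190384577: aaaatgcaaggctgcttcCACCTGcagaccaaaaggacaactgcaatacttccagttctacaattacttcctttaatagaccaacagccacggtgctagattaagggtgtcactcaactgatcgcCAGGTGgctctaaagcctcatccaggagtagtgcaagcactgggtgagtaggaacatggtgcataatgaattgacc
CLDN14 at 1662 bp, chr21:36478328-36478528: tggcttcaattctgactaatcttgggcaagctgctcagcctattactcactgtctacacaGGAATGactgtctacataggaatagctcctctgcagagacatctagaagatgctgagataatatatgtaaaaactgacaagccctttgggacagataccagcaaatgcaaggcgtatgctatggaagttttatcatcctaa
CLDN1 start, chr3:190322447-190322540, minus strand: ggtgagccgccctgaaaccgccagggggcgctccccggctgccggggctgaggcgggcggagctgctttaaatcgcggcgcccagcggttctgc

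The CLDN16 summit held 2 E2-box matches and the CLDN14 summit 1 TEAD match, and the CLDN1 stretch held none of the 6 motifs. Factors of the IRF family, many of them regulated by interferon, are known to bind GAAA repeats. Over all 77 summits, IRF matches stood at 8 (10.4%, 5.36 to 19.2%), against 6.25% of the 38475 regions near protein-coding genes. Of the 11 regions in WT-IFN-γ alone, 4 held one (36.4%, 15.2 to 64.6%), among them CLDN14 at -5217 bp and CLDN16 at -9471 bp. Among regions near all genes the share was 17.0% for those in WT-IFN-γ alone, 4.76% for those in WT alone, 4.56% for sgFLI1 alone and 5.05% for sgFLI1-IFN-γ alone. The higher share in WT-IFN-γ thus stood over regions near all genes too. This comparison was chosen after matches in these regions had been seen.

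The other motifs were near the shares of all regions. AP1 stood at 18 of 77 summits (23.4%, 15.3 to 34.0%, against 17.0%), the E2-box at 18 (23.4%, against 17.97%), TEAD at 9 (11.7%, against 12.8%), and ETS and GRHL at 1 each (1.299%, against 2.09% and 1.06%). The only ETS match was in a claudin region. The median GC content within 100 bp of the summit was 58.2%, against 55.2% over all regions near genes, with 60.7% in plaque regions and 46.8% in those of OCLN and TJP1.

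Other genes of the same junctions were examined by 3 lists. The other tight junction genes (16 genes, 55 regions) had median log2 ratios of FLI1-KO to WT of -0.10 without IFN-γ and -0.14 with it. The other adhesion, plaque and envelope genes (16 genes, 88 regions) had -0.02 and -0.16, and factors known to act on junction genes (13 genes, 44 regions) had -0.27 and -0.13. Of the 33, 56 and 25 regions of these lists shared by sgFLI1 and WT, 1, 1 and 0 were at least 2-fold lower in sgFLI1 (against 1.67% of the regions near all genes) and 1, 3 and 0 at least 2-fold higher (against 2.16%). With IFN-γ, of 35, 55 and 26 shared regions, 2, 3 and 1 were lower (against 2.06%) and 1, 1 and 1 higher (against 2.03%). Whether these counts differ from those shares was not tested.

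Named examples from these lists were chosen after their values were seen. PPL, for the plaque-associated periplakin, had 89, 106, 47 and 35 tags at -82 bp, with log2 ratios of -0.76 and -1.21 on chromosome 16. PARD3, a polarity scaffold of the tight junction, had 31, 32, 8 and 10 tags at -7137 bp, and PATJ, another such scaffold, had 13, 11, 27 and 27 at 128 bp. At TP63, which encodes the p63 factor of basal squamous cells, a region at -7992 bp had 14 tags in WT, 48 in WT-IFN-γ and no listing in FLI1-KO cells. GRHL2, an activator of claudin genes, had 27, 59, 25 and 25 tags at 5705 bp. Those at PPL, PARD3 and PATJ followed the genotype in both pairs, the last in the upward direction, and those at TP63 and GRHL2 were highest in WT-IFN-γ. The 8 and 10 tags of PARD3 were near the lowest pileup listed, 7 tags. Each example is a single region, and other regions of these genes did not all move alike. PARD3 had 26, 27, 25 and 20 tags at -116 bp, while at -624 bp it had 35, 47 and 16 and no listing in sgFLI1.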

How the data were processed

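ATAC-seq of HK1 cells gave 4 peak lists, 1 for each combination of genotype and IFN-γ treatment, grouped by the genotype and treatment in the labels. Per the study's methods and the submitters' processing notes, the authors used Trimmomatic 0.3 for trimming and Bowtie2 2.3.4.1 for alignment to GRCh38, removed low-quality alignments and duplicates with SAMtools and Picard, and called peaks with MACS2 2.1.2 at a q-value of 0.05. Whether a list holds 1 replicate or pooled ones, whether the reproducibility filter named in the methods had been applied, and whether tag ends were shifted are not given in the sources used here. A shift would move summits by a few bases. The deposited lists give each peak a score, a fold enrichment (a ratio to the local background) and −log10 p and −log10 q values. The score was not used.

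Whole pileups were recovered from the fold, (pileup + 1) / (background + 1), and the Poisson −log10 p, for 100% of peaks. Tag density was the lowest background divided by the shortest peak (8.04 tags per kb in WT and 8.84 in WT-IFN-γ, against 6.93 and 6.86 in untreated and treated FLI1-KO cells). The lowest pileups listed were 8 tags in both WT lists and 7 in both FLI1-KO lists. Peaks sharing 1 bp were merged, and regions within 10 kb of any GENCODE 44 start of a gene were assigned to it. Intervals are exact Poisson (pileups), Wilson (shares) and exact conditional binomial (ratios), without correction for PCR copies that duplicate removal missed. For a missing region, the pileup expected there is that of the other library, scaled by tag density and by the median log2 ratio of the chromosome. The median of all shared regions, from -0.14 (sgFLI1-IFN-γ to sgFLI1) to 0.05 (sgFLI1 to WT), was not applied to it. The interval of an expected pileup carries the counting error of the listed peak only, and not that of the list without the peak. The expected pileup comes from a peak that had passed the listing limit, and no allowance was made for that selection. The listing limit is the lowest pileup that list would hold at a like background. No peak ended beyond a GRCh38 chromosome.

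Each gene's start region, regions in 1 library of a pair with −log10 q of at least 5, regions past 2-fold and the 10 highest were named by rule. Some other regions were described with their values known. The genes, lists and rules were chosen with earlier results of these data known. Alternatives were −log10 q of at least 5, windows of 3 and 50 kb, canonical starts, 50% overlap, other centrings, no chromosome 18 and a minimum of 60 tags. The steps were tested on simulated data. A withheld sequence and the results that need it are not reported here. The work was done in Python 3.11.15 with scipy 1.17.1, pandas 2.3.3, matplotlib 3.10.9 and numpy 2.4.6.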

Additional observations from a re-analysis of the deposited data

Results flagged for a closer look

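With IFN-γ the net number of listed regions at claudin and desmosome genes changed by 12 in WT cells and by -6 in FLI1-KO cells, which was flagged because the genotypes moved in opposite directions. The difference was not tested, since each group held 1 library. In the same direction, the counts over regions near all protein-coding genes were 5523 gained against 3115 lost for WT cells, and 3365 against 4480 for FLI1-KO cells.

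The CLDN4 region at 2666 bp was the 1 region gained with IFN-γ in WT cells and lost with it in FLI1-KO cells, with 50 tags in WT-IFN-γ and 37 in sgFLI1. This opposite movement was not tested either.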

How the results depend on the processing

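No paired analysis was possible because each group held 1 library and the labels carry no replicate numbers. Of 18 results under 11 alternatives, 56 values stayed within 1.5 times the count, or within the spread, of the reported one and 24 moved. With −log10 q of at least 5 required, the regions lost with IFN-γ in FLI1-KO cells numbered 7, those in sgFLI1-IFN-γ and not in WT-IFN-γ 1, while 8 were in sgFLI1 and not in WT and 8 the reverse. Within 3 kb of a start, 5 regions were gained and 2 lost with IFN-γ in WT cells and 0 gained in FLI1-KO cells, while 3 were in WT and not in sgFLI1, 2 in sgFLI1-IFN-γ and not in WT-IFN-γ, and 8 the reverse. Within 50 kb, IFN-γ gained 33 and lost 12 in WT cells and gained 24 and lost 29 in FLI1-KO cells. Between genotypes that window gave 31 in sgFLI1 and not in WT, 26 the reverse, 18 in sgFLI1-IFN-γ and not in WT-IFN-γ and 39 the reverse. With canonical starts only, 9 were gained with IFN-γ in WT cells, 3 were in WT and not in sgFLI1, and 8 were in WT-IFN-γ and not in sgFLI1-IFN-γ. These windows hold other numbers of regions by construction. Uncentred, the median log2 ratio of sgFLI1-IFN-γ to sgFLI1 was -0.20, since the median of all regions was -0.14. The medians of the shared cadherin regions in FLI1-KO against WT were -0.76 without IFN-γ and -0.56 with it. They rested on 2 regions, both of DSG2, and on 3, those of DSG2 and DSG3, with no DSC region. These medians became -0.46 and -0.21 when centred on the other chromosome 18 regions, and -0.46 and -0.21 on those within 10 Mb. Depth limited what the lists can show, with no region under 8 tags in the WT lists or under 7 in the FLI1-KO lists.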
